A study of Homo sapiens with 14 samples.

Results

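A set of 37 genes that shape the electrical excitability of the pancreatic β cell was followed through 14 RNA sequencing libraries made on the way from human pluripotent stem cells (hPSCs) to β-like cells. The genes were given as a named list of channel subunits, channel regulators and calcium pumps, and all 37 were found by symbol among the 60624 gene identifiers in the expression tables. The list was not chosen by a cutoff on these values, but it was chosen with earlier results of these data known. The question was which of these genes are gained in β-like cells made from expanded progenitors and in β-like cells made directly from hPSCs, and which differ between the products.

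In a resting β cell, potassium leaves through ATP-sensitive (K-ATP) channels and keeps the membrane polarized. Glucose metabolism raises ATP and closes these channels, the membrane depolarizes, voltage-gated sodium and calcium channels open, and the calcium that enters triggers the release of insulin. Tandem-pore (K2P) potassium channels set a background leak, voltage-gated and calcium-activated potassium channels end each action potential, and calcium pumps clear the cytosol between bursts.

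All libraries came from MEL1, a human embryonic stem cell line in which a GFP reporter replaces 1 INS allele. The groups hPSC, DE (definitive endoderm), PP2 (PDX1+NKX6.1+ pancreatic progenitors) and SC-β (β-like cells obtained directly from hPSCs) had 1 library each, all from batch 1. Expandable pancreatic progenitors (ePPs) were sampled at passage 9 (ePP-P9) and passage 21 (ePP-P21), grown on feeder cells in medium with EGF, bFGF, the TGF-β receptor inhibitor 616452 and 1 μM I-BET151, an inhibitor of BET bromodomain proteins. The group ePP-β held β-like cells that had been differentiated from ePPs. Batch 2 holds these 3 groups, with 2 libraries each. Batch 3 holds hPSC-derived pancreatic progenitors after 7 days with either 1 μM I-BET151 (I-BET151) or DMSO, its solvent (DMSO), with 2 libraries per group. In the study such progenitors were grown in the same basal medium as ePPs, with EGF, bFGF and 616452, and were passaged in it before treatment in its compound screen. Whether that was so for these libraries is not stated. Nothing in the sources used here says that the replicates were separate cultures, so p-values measure only the spread between these libraries, which may be technical. The RNA came from whole cultures of 1 cell line, so fewer cells of a type and less RNA per cell cannot be told apart.

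Values are TPM, in which a gene's reads are divided by transcript length and scaled to a common library total. They summed to between 908685 and 985497 per library over the genes listed. The number of reads behind each value is unknown. An exact 0 is given only as listed at 0, because all 37 mitochondrial genes were listed at 0 in every library. The endocrine label of the β-like cells was checked against markers fixed with the design. The β cell markers summed to 11648 and 18045 TPM in the ePP-β libraries and to 21136 TPM in SC-β, carried by INS. Of the 8, 7 reached 1 TPM in each of the 3 libraries, with IAPP below it in ePP-β and MAFA below it in SC-β. In ePPs 2 to 4 of the 8 reached 1 TPM. PDX1 and NKX6-1, which also mark progenitors, were higher in every ePP library than in ePP-β. The α cell markers summed to 14278 and 13518 TPM in ePP-β and to 74621 TPM in SC-β, carried by GCG, so these cultures were not pure β cells by RNA.

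The start regions are shown for 4 of the genes that stand out in the expression results. KCNK16 and KCNK17 lie next to each other on chromosome 6 and came on together in both β-like products, CACNA2D1 was gained in ePP-β above its SC-β level, and KCNH2 was far lower in ePP-β than in SC-β. The sequences are RefSeq bases upstream of the transcription start on GRCh38.p14, printed 5′ to 3′ on the minus strand, on which all 4 genes lie. The window of KCNK16 is chr6:39322969-39323218, that of KCNK17 is chr6:39314462-39314669, that of CACNA2D1 is chr7:82443957-82444206 and that of KCNH2 is chr7:150978322-150978571. Capitals mark the letters CAGATG, a form of the E-box that NEUROD1 can bind, and TATAAA, each searched on both strands.
KCNK16: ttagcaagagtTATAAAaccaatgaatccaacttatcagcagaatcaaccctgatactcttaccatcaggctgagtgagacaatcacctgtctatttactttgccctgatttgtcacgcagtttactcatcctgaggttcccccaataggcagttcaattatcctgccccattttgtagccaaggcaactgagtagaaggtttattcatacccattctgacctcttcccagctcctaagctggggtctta
KCNK17: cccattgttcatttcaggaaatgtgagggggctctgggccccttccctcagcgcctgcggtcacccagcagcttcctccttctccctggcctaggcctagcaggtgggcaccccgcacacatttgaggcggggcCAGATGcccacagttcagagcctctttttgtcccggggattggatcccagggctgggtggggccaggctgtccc
CACNA2D1: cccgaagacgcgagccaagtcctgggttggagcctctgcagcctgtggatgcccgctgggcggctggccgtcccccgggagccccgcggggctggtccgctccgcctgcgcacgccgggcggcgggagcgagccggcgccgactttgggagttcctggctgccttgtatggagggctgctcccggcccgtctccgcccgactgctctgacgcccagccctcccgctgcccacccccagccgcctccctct
KCNH2: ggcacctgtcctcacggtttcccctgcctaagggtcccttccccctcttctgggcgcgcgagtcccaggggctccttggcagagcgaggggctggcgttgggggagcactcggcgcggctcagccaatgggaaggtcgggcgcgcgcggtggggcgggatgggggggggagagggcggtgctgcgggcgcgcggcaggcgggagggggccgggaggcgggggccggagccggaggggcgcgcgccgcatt
The windows differed in base composition. The KCNK16 window held 43.6% G and C with 1 CpG, the KCNK17 window 63.9% with 5 CpGs, the CACNA2D1 window 75.6% with 27 CpGs and the KCNH2 window 77.2% with 29 CpGs, against medians of 58.0% and 11 CpGs over 35116 RefSeq windows of 250 bases. CAGATG was present in 12.2% of all those windows and TATAAA in 10.7%. The 28 excitability genes with a window had 47 windows in all, of which 9 held CAGATG, in 7 genes, and 3 held TATAAA, in 3 genes. A match of letters is a description and does not show a binding site.

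The 37 genes together were low in ePPs and high in both β-like products. Their summed level in TPM was 81.1 and 87.2 at passage 9 of the ePPs, 97.9 and 112 at passage 21, 1069 and 1049 TPM in ePP-β and 1653 TPM in SC-β. PP2, the progenitor of the direct route, had 330 TPM. In each ePP library 9 to 11 of the genes reached 1 TPM, against 28 and 30 in ePP-β and 30 in SC-β. The heatmap of all genes and libraries shows this change as a block of high values in 3 columns. The genes ABCC9, KCNK2, CACNA1E and TRPM2 stayed under 1 TPM in all 14 libraries.

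**Figure D1:**
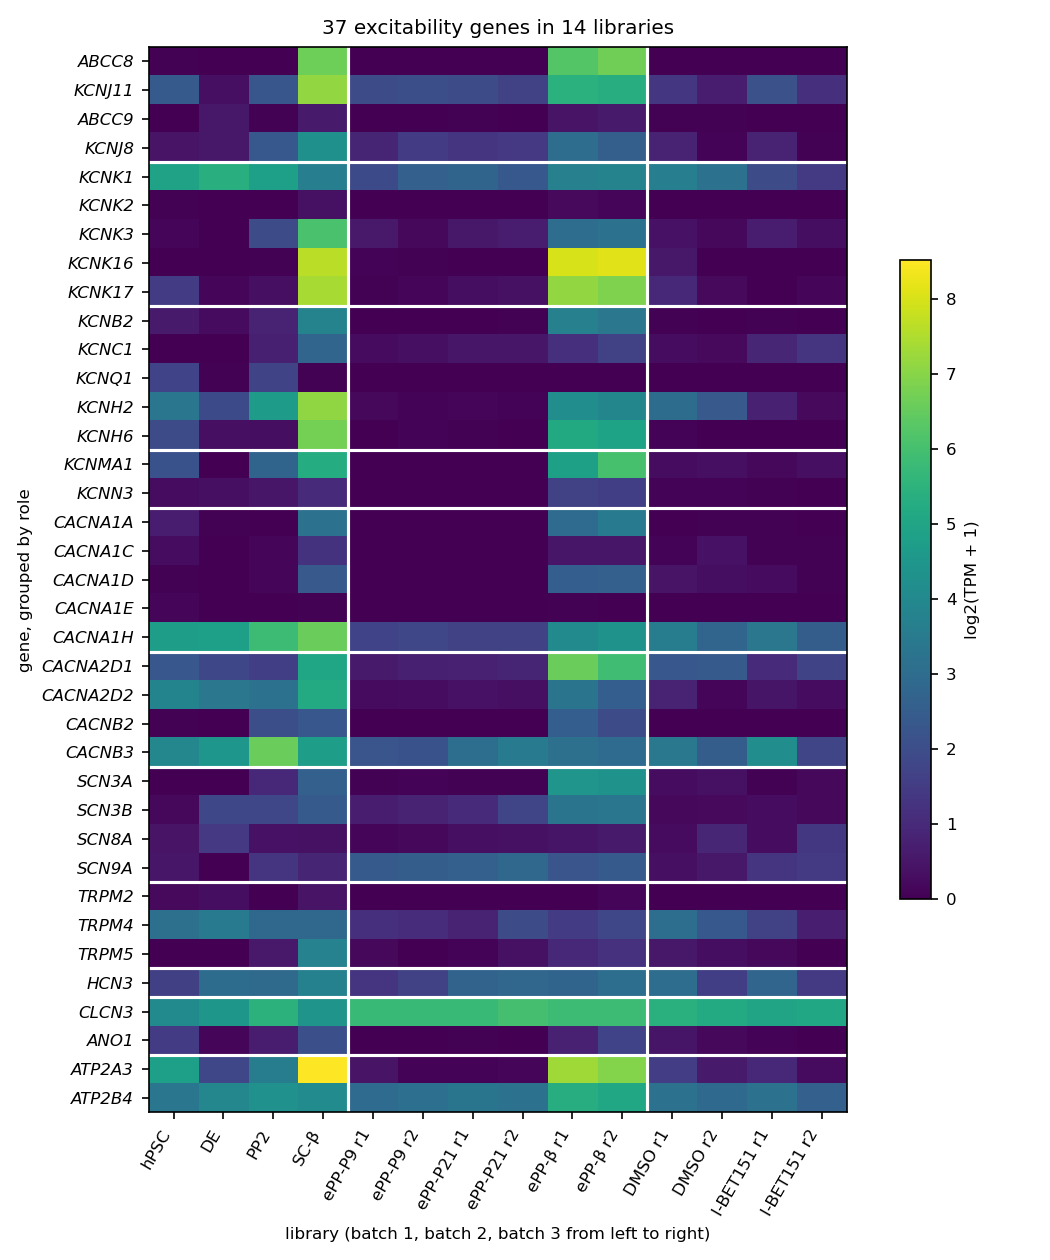
Level of each of the 37 genes (rows, grouped by role) in each of the 14 libraries (columns, white lines between batches) as log2(TPM + 1), with the colour scale at the right. The SC-β column and both ePP-β columns hold most of the high values, and KCNK16 reached 278 TPM in ePP-β replicate 2.

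Against ePPs, 28 of the 37 genes reached 1 TPM in 2 or more of the 6 batch 2 libraries and could be tested. By limma, 22 were higher in ePP-β and 0 were lower, where a call required both a fold change of more than 1 log2 unit and an adjusted p below 0.05. Over all 18076 tested genes, 17.9% were called higher and 9.86% lower. An adjusted p below 0.05 in either direction, whatever the fold, was found for 24 of the 28 genes and for 57.4% of all tested genes, and an unadjusted one for 24 and for 62.2%. The median log2 fold change of the 28 genes was 2.57, against -0.03 over all tested genes. These counts are a description only, because 17 of the 28 passed the low-value filter through the ePP-β libraries alone and so had to differ. Of the 22 called genes, 16 are among them, and their p-values below carry the same limit. The other 6, at 1 TPM or more in at least 2 ePP libraries, are KCNJ11, KCNJ8, KCNK1, CACNA1H, SCN3B and ATP2B4. The 9 genes without a test were ABCC9, KCNK2, KCNQ1, CACNA1C, CACNA1E, SCN8A, TRPM2, TRPM5 and ANO1. With the filter applied anew to 5 libraries, leaving out ePP-β replicate 1 or replicate 2 left 6 genes called higher in each case, because a gene seen only in ePP-β then has 1 library at 1 TPM. With the tested genes held as in the full fit, the counts were 22 and 21. Markers of several other cell types rose with this gain, while the sum of the mesenchymal markers fell. Those of hepatocytes summed to 163 to 191 TPM in ePPs and 14714 and 17372 TPM in ePP-β, mostly TTR, which islet cells also express. Enterochromaffin markers went from 18.8 to 22.8 TPM in ePPs to 1019 and 1106 TPM, α cell markers from 1.11 to 2.18 TPM to 14278 and 13518 TPM, and STMN2, a neuronal marker, from 0.060 to 2.14 TPM to 1056 and 1073 TPM. POU4F1, another neuronal marker, did not rise, at 0.430 to 2.43 TPM in ePPs and 0.627 and 0.858 TPM in ePP-β. Mesenchymal markers summed to 102 to 133 TPM in ePPs and 88.6 and 66.9 TPM in ePP-β, mostly ACTA2. Of this list ACTA2 and PDGFRB fell, and COL1A1, COL3A1 and PDGFRA overlapped between ePPs and ePP-β. DCN and THY1 rose, from at most 0.140 and 0.097 TPM in ePPs. In ePP-β, DCN was 0.956 and 1.11 TPM and THY1 was 0.296 and 0.398 TPM. The part of these cell types in the gain of the channel genes was not tested.

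**Figure D2:**
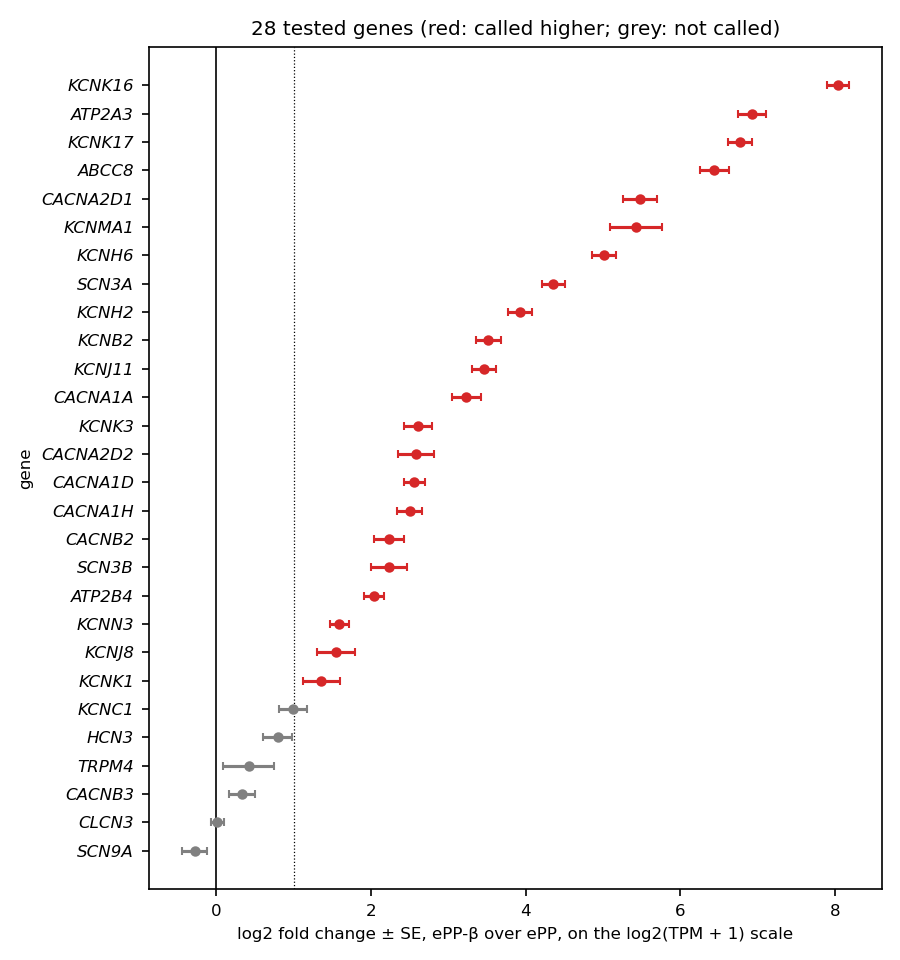
Log2 fold change of ePP-β over ePP (horizontal axis, on the log2(TPM + 1) scale, bars ± SE from limma over 6 libraries) for the 28 tested genes, ordered by size. KCNK16 at 8.04, ATP2A3 at 6.93, KCNK17 at 6.77 and ABCC8 at 6.44 lead, and 6 genes in grey were not called.

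The K-ATP channel of the β cell is made of the sulfonylurea receptor SUR1, encoded by ABCC8, and the pore Kir6.2, encoded by KCNJ11. ABCC8 was at 0.02 TPM or less in all 4 ePP libraries, 73.6 and 101 TPM in ePP-β and 99.3 TPM in SC-β. It was also under 0.04 TPM in hPSC and DE and listed at 0 in PP2, so its level appeared only in the β-like libraries. KCNJ11 was present earlier. It ranged from 2.18 to 3.09 TPM in ePPs, was 42.1 and 38.4 TPM in ePP-β and 140 TPM in SC-β, with 3.85 TPM in PP2 and 4.32 TPM in hPSC. Both rose in ePP-β, ABCC8 with a log2 fold change of 6.44 ± 0.18 (SE, adjusted p = 6.62e-06) and KCNJ11 with 3.46 ± 0.16 (SE, adjusted p = 2.24e-05). The ratio of ABCC8 to KCNJ11 in TPM was 1.75 and 2.64 in the ePP-β libraries and 0.709 in SC-β. The genes are neighbours on chromosome 11, 3166 bases apart on the same strand.

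The other subunit pair, encoded by ABCC9 (SUR2) and KCNJ8 (Kir6.1), forms the K-ATP channel known from vascular smooth muscle. ABCC9 stayed at or below 0.544 TPM in all 14 libraries. KCNJ8 was between 0.828 and 1.86 TPM in ePPs, 7.24 and 5.04 TPM in ePP-β, 18.3 TPM in SC-β and 4.08 TPM in PP2. It rose by a log2 fold change of 1.54 ± 0.25 (SE, adjusted p = 2.67e-03), a smaller change than that of either β cell subunit, and its ePP-β and ePP libraries did not overlap.

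The largest log2 fold change of the 28 tested genes was that of a K2P gene, KCNK16. KCNK16 and KCNK17 encode TALK-1 and TALK-2, potassium leak channels of the pancreas. KCNK16 was at 0.05 TPM or less in ePPs, 258 and 278 TPM in ePP-β and 196 TPM in SC-β, and it had the highest level of all 37 genes in ePP-β. KCNK17 was at or below 0.31 TPM in ePPs, 138 and 115 TPM in ePP-β and 168 TPM in SC-β. Outside the β-like libraries neither gene passed 1.87 TPM. The log2 fold changes were 8.04 ± 0.14 for KCNK16 (SE, adjusted p = 2.59e-06) and 6.77 ± 0.16 for KCNK17 (SE, adjusted p = 4.21e-06). The genes end and start 236 bases apart on the same strand, and of the motifs searched the KCNK16 window printed above holds only TATAAA and the KCNK17 window only CAGATG. Together they made up 37.0% and 37.5% of the summed level of the 37 genes in the ePP-β libraries and 22.0% in SC-β.

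KCNK3, which encodes the acid-sensitive leak channel TASK-1, was between 0.138 and 0.592 TPM in ePPs, 7.17 and 8.15 TPM in ePP-β and 65.6 TPM in SC-β. It rose in ePP-β (2.61 ± 0.18, SE, adjusted p = 9.59e-05). KCNK1, which encodes TWIK-1, took another course. It was highest early, with 28.7 TPM in hPSC, 40.7 TPM in DE and 26.7 TPM in PP2, and lay between 2.79 and 5.68 TPM in ePPs. In ePP-β it was 12.1 and 12.9 TPM and in SC-β 11.5 TPM, so that both products had a similar level reached from a lower progenitor level on 1 route and from a higher one on the other. The gain over ePPs was 1.36 ± 0.24 on the log2 scale (SE, adjusted p = 3.99e-03). Of the 22 called genes, KCNK1 alone lost its call when either ePP-β library was left out with the tested genes held, at adjusted p = 0.0548 without replicate 1 and 0.0612 without replicate 2. KCNK2 (TREK-1) was at or below 0.294 TPM in every library.

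**Figure D3:**
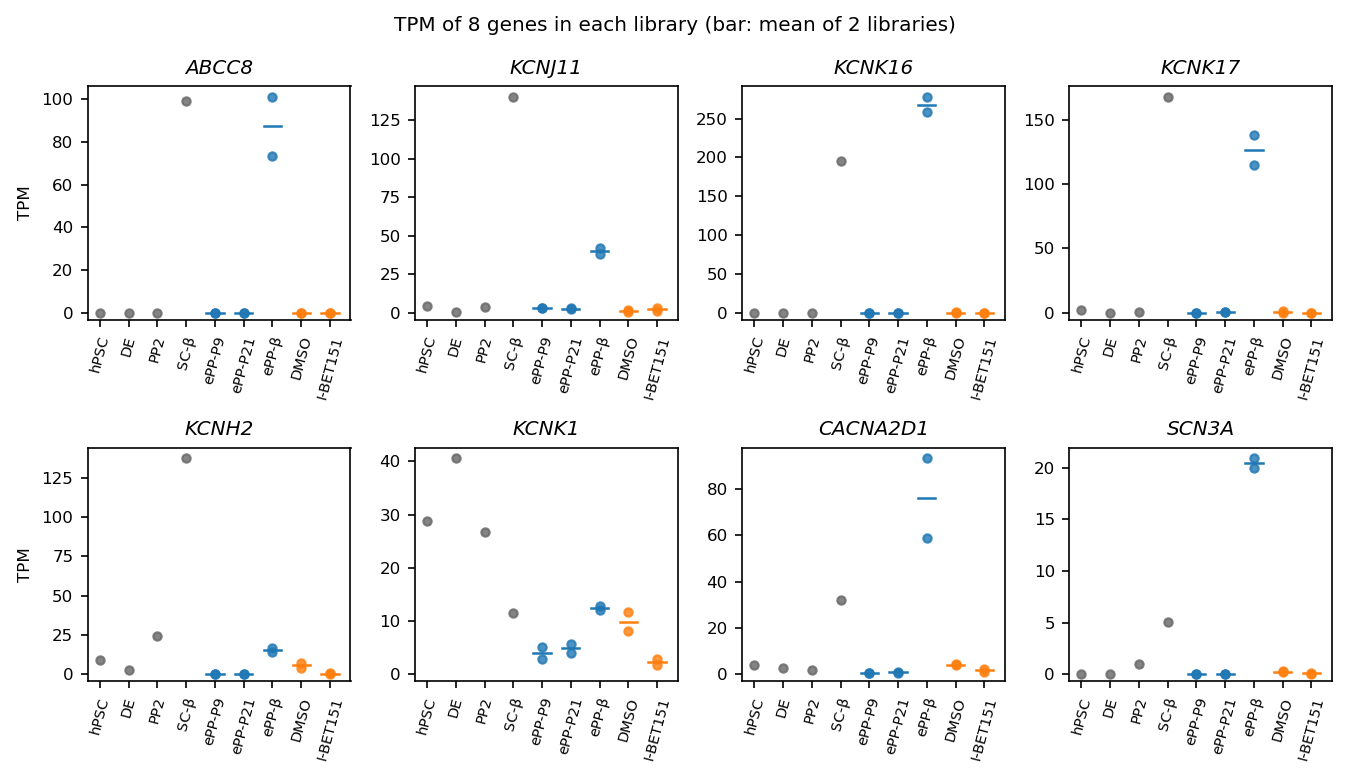
TPM of 8 genes in each of the 14 libraries (points, coloured by batch, short bars for the mean of 2 libraries, vertical axes from 0 on scales of their own). ABCC8, KCNK16 and KCNK17 are near 0 outside the β-like libraries, KCNK1 is highest in DE at 40.7 TPM, and KCNH2 reaches 137 TPM in SC-β against 16.9 and 14.2 TPM in ePP-β.

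Among the voltage-gated potassium channel genes, 3 of 5 rose in ePP-β. KCNB2 encodes Kv2.2, a delayed rectifier. It was at or below 0.044 TPM in ePPs, 12.1 and 9.27 TPM in ePP-β and 12.9 TPM in SC-β, with a log2 fold change of 3.52 ± 0.16 (SE, adjusted p = 2.55e-05). KCNH2 and KCNH6 encode ERG1 and ERG2, which help repolarize excitable cells. KCNH2 was between 0.055 and 0.134 TPM in ePPs, 16.9 and 14.2 TPM in ePP-β and 137 TPM in SC-β, with 24.3 TPM in PP2 and 9.15 TPM in hPSC. KCNH6 was at or below 0.048 TPM in ePPs, 34.9 and 29.4 TPM in ePP-β and 105 TPM in SC-β, with 0.255 TPM in PP2. Thus KCNH2, but not KCNH6, was already present in the progenitors of the direct route. The log2 fold changes over ePPs were 3.92 ± 0.16 for KCNH2 (SE, adjusted p = 1.60e-05) and 5.01 ± 0.16 for KCNH6 (SE, adjusted p = 8.30e-06).

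KCNC1 encodes the fast channel Kv3.1. It was between 0.2 and 0.432 TPM in ePPs, 1.23 and 2.12 TPM in ePP-β and 5.93 TPM in SC-β. Its log2 fold change of 0.99 ± 0.18 (SE, adjusted p = 4.39e-03) lay just under the limit of 1, the nearest of the tested genes that were not called. The gene SERGEF overlaps it on the other strand at 38.2 and 46.6 TPM in ePP-β, and reads of overlapping genes cannot be assigned without strand. KCNQ1, a slow delayed rectifier of heart and epithelia, was at 2.25 TPM in hPSC and 2.38 TPM in PP2 and at 0.04 TPM or less in the other 12 libraries, both β-like products included.

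Both calcium-activated potassium channel genes rose in ePP-β. KCNMA1 encodes the large-conductance BK channel. It was at or below 0.018 TPM in ePPs, 27.5 and 64.9 TPM in ePP-β and 37.8 TPM in SC-β, with a log2 fold change of 5.43 ± 0.34 (SE, adjusted p = 6.82e-05). The ePP-β libraries differed more for this gene than for the others at a similar level, and SC-β lay between them. KCNN3, for the small-conductance channel SK3, was at or below 0.015 TPM in ePPs, 2.1 and 1.98 TPM in ePP-β and 1.04 TPM in SC-β, a log2 fold change of 1.59 ± 0.13 (SE, adjusted p = 1.61e-04).

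The pore-forming subunits of voltage-gated calcium channels were few in ePPs. CACNA1H, for the T-type channel Cav3.2 that opens near rest, was the only one above 1 TPM there, at 2.18 to 2.50 TPM, and was 15.6 and 19.8 TPM in ePP-β and 94.8 TPM in SC-β. It was 26.2 TPM in hPSC, 27.1 TPM in DE and 56.8 TPM in PP2, so its level was lowest in ePPs among the stages before the β-like cells. CACNA1D, for the L-type channel Cav1.3, was at or below 0.021 TPM in ePPs, 4.79 and 5.12 TPM in ePP-β and 4.26 TPM in SC-β. CACNA1A, for the P/Q-type channel Cav2.1 that couples to exocytosis, was below 0.001 TPM in ePPs, 6.93 and 10.2 TPM in ePP-β and 8.03 TPM in SC-β.

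All 3 of these pore genes rose over ePPs, by log2 fold changes of 2.50 ± 0.16 for CACNA1H (SE, adjusted p = 7.98e-05), 2.56 ± 0.13 for CACNA1D (SE, adjusted p = 3.67e-05) and 3.23 ± 0.18 for CACNA1A (SE, adjusted p = 5.00e-05). CACNA1C, for the L-type channel Cav1.2, was 0.424 and 0.435 TPM in ePP-β and 1.40 TPM in SC-β. CACNA1E, for the R-type channel Cav2.3, was at or below 0.077 TPM in all 14 libraries. Of these L-type genes, CACNA1D had the higher level in both products. On the opposite strand, DCP1A overlaps CACNA1D. The ePP libraries, in which CACNA1D was nearly 0, had 14.1 to 17.1 TPM of DCP1A, against 15.9 and 16.7 TPM for ePP-β.

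Auxiliary subunits carry calcium channels to the membrane and tune their gating. CACNA2D1, for the α2δ1 subunit, was between 0.525 and 0.856 TPM in ePPs, 93.4 and 59.1 TPM in ePP-β and 32.0 TPM in SC-β. CACNA2D2, for α2δ2, was at or below 0.339 TPM in ePPs, 8.75 and 4.85 TPM in ePP-β and 36.2 TPM in SC-β. The 2 products thus held the α2δ genes in opposite order, with CACNA2D1 the higher one in both ePP-β libraries and CACNA2D2 slightly the higher one in SC-β. Over ePPs, CACNA2D1 rose by 5.47 ± 0.22 (SE, adjusted p = 1.64e-05) and CACNA2D2 by 2.59 ± 0.23 (SE, adjusted p = 2.62e-04) on the log2 scale.

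The β subunits bind the pore from inside. CACNB2 was at or below 0.013 TPM in ePPs, 4.77 and 2.92 TPM in ePP-β and 3.97 TPM in SC-β, and rose over ePPs (2.24 ± 0.19, SE, adjusted p = 2.16e-04). CACNB3 was expressed throughout. It was 94.2 TPM in PP2, 3.39 to 10.1 TPM in ePPs, 7.80 and 6.88 TPM in ePP-β and 25.7 TPM in SC-β, and its ePP and ePP-β libraries overlapped (0.33 ± 0.17, SE, adjusted p = 0.15).

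Voltage-gated sodium channels carry the fast upstroke of the action potential. SCN3A, for Nav1.3, was at or below 0.066 TPM in ePPs, 20.9 and 19.9 TPM in ePP-β and 5.06 TPM in SC-β. SCN3B, for the β3 auxiliary subunit, was 0.598 to 2.40 TPM in ePPs, 8.69 and 9.13 TPM in ePP-β and 4.30 TPM in SC-β. Both rose over ePPs, SCN3A by 4.36 ± 0.14 (SE, adjusted p = 9.38e-06) and SCN3B by 2.23 ± 0.23 (SE, adjusted p = 4.87e-04) on the log2 scale. SCN9A, for Nav1.7, was already at 4.32 to 6.39 TPM in ePPs, with 3.74 and 4.33 TPM in ePP-β and 0.829 TPM in SC-β (-0.28 ± 0.16, SE, adjusted p = 0.194). SCN8A, for Nav1.6, stayed under 1 TPM in both products. The summed level of the 4 sodium channel genes was 33.7 and 33.9 TPM in ePP-β and 10.5 TPM in SC-β.

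None of the remaining channel genes was called, and TRPM2, TRPM5 and ANO1 were not tested. TRPM4 and TRPM5 encode calcium-activated cation channels that depolarize. TRPM4 was 0.748 to 2.88 TPM in ePPs, 1.88 and 2.51 TPM in ePP-β and 6.17 TPM in SC-β (0.42 ± 0.33, SE, adjusted p = 0.316). TRPM5 was at or below 0.315 TPM in ePPs, 0.918 and 1.31 TPM in ePP-β and 12.6 TPM in SC-β. TRPM2 reached at most 0.363 TPM, in SC-β. HCN3, a hyperpolarization-activated channel, was 1.5 to 5.94 TPM in ePPs, 5.73 and 7.53 TPM in ePP-β and 12.3 TPM in SC-β. It passed the adjusted p but not the fold limit (0.79 ± 0.19, SE, adjusted p = 0.0136). Its neighbour CLK2 overlaps it on the other strand at 19.2 and 43.1 TPM in ePP-β and 34.3 to 74.8 TPM in ePPs.

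Of the chloride transport genes, CLCN3, which encodes the granule and endosome exchanger ClC-3, was 51.8 to 63.0 TPM in ePPs, 56 and 55.6 TPM in ePP-β and 20.2 TPM in SC-β, with a difference from ePPs of 0.01 ± 0.09 (SE, adjusted p = 0.897). ANO1, a calcium-activated chloride channel, was at or below 0.038 TPM in ePPs, 0.723 and 2.26 TPM in ePP-β and 3.20 TPM in SC-β.

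Both calcium pump genes rose. ATP2A3 encodes SERCA3, which fills the endoplasmic reticulum. It was 0.064 to 0.354 TPM in ePPs, 155 and 122 TPM in ePP-β and 365 TPM in SC-β, the highest value of any of the 37 genes in any library. ATP2B4, for the plasma membrane pump PMCA4, was 6.93 to 8.95 TPM in ePPs, 38.8 and 33.0 TPM in ePP-β, 16.3 TPM in SC-β and 19.0 TPM in PP2. The log2 fold changes over ePPs were 6.93 ± 0.19 for ATP2A3 (SE, adjusted p = 5.52e-06) and 2.04 ± 0.13 for ATP2B4 (SE, adjusted p = 6.57e-05).

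On the direct route, SC-β was set beside PP2 of the same batch, without a test because each had 1 library. Of 32 of the genes at 1 TPM or more in either library, 20 were higher in SC-β by more than 1 log2 unit and 4 were lower, against 12.7% and 22.1% of all 18894 genes kept. These counts are a description only, because a gene under 1 TPM in 1 library was kept only through the other. The largest differences were 7.57 for KCNK16, 7.06 for KCNK17, 6.65 for ABCC8 and 6.4 for KCNH6. The 4 lower genes were KCNK1, KCNQ1, CACNB3 and CLCN3. CACNB3 was 94.2 TPM in PP2 and 25.7 TPM in SC-β, and CLCN3 was 43.3 and 20.2 TPM. KCNH2, CACNA1H and CACNA2D2, which were close to 0 or low in ePPs, were already at 24.3, 56.8 and 8.34 TPM in PP2. PP2 also held mesenchymal marker RNA (1209 TPM over 7 markers, against 102 to 133 TPM in ePPs), whose part in these levels was not tested.

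The products were then compared. SC-β had 1 library from another batch than ePP-β, so batch and group cannot be told apart and the comparison has no test. A gene was counted when both ePP-β libraries lay more than 1 log2 unit to the same side of SC-β. Of 31 of the genes at 1 TPM or more in either product, 3 were higher in ePP-β, 12 were lower and 16 were neither. Over all 19533 genes kept, 14.5% were higher and 14.7% lower. These counts too are a description only, because a gene under 1 TPM in 1 product was kept only through the other. The median log2 difference was -0.41 for the 31 genes, -0.47 for 76 other channel genes of the same families and 0.20 for all genes.

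The genes higher in ePP-β were SCN3A, SCN9A and CLCN3. SCN3A was 4.03 times its SC-β level on average. CACNA2D1 and ATP2B4 were 2.39 and 2.20 times their SC-β levels on average, but in each 1 of the libraries lay less than 1 log2 unit above SC-β. Without ePP-β replicate 2 these genes counted too, which made 5.

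The 12 genes lower in ePP-β were spread over several roles. They were the K-ATP genes KCNJ11 and KCNJ8, the potassium channel genes KCNK3, KCNC1, KCNH2 and KCNH6, the calcium channel genes CACNA1H, CACNA2D2 and CACNB3, the cation channel genes TRPM4 and TRPM5, and the pump gene ATP2A3. As a ratio of TPM to the ePP-β mean, the SC-β level of TRPM5 was 11.3 times as high, with ePP-β near 1 TPM. The ratio was 8.82 for KCNH2, 8.56 for KCNK3, 5.35 for CACNA1H and 3.48 for KCNJ11. The log2 differences in the 2 ePP-β libraries were -2.95 and -3.19 for KCNH2 and -3.03 and -2.86 for KCNK3, so the libraries lay close together beside the gap to SC-β.

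The genes with SC-β between or near the ePP-β libraries were ABCC8, KCNK1, KCNK16, KCNK17, KCNB2, KCNMA1, CACNA1A, CACNA1D and CACNB2. ABCC8 at 73.6 and 101 TPM against 99.3 TPM and CACNA1A at 6.93 and 10.2 TPM against 8.03 TPM lay within the range of the ePP-β libraries or at its edge. Ordered by level, the first 3 genes were KCNK16, ATP2A3 and KCNK17 in ePP-β and ATP2A3, KCNK16 and KCNK17 in SC-β. In ePP-β the levels of ATP2A3 (139 ± 23.5 TPM, SD, n = 2) and KCNK17 (127 ± 16.2 TPM, SD, n = 2) overlapped, although ATP2A3 was the higher one within each library. KCNK16 (268 ± 14.2 TPM, SD, n = 2) lay above both without overlap. KCNH2 had rank 5 in SC-β and 13 in ePP-β, KCNJ11 had rank 4 and 8, and SCN3A had rank 24 and 11.

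**Figure D4:**
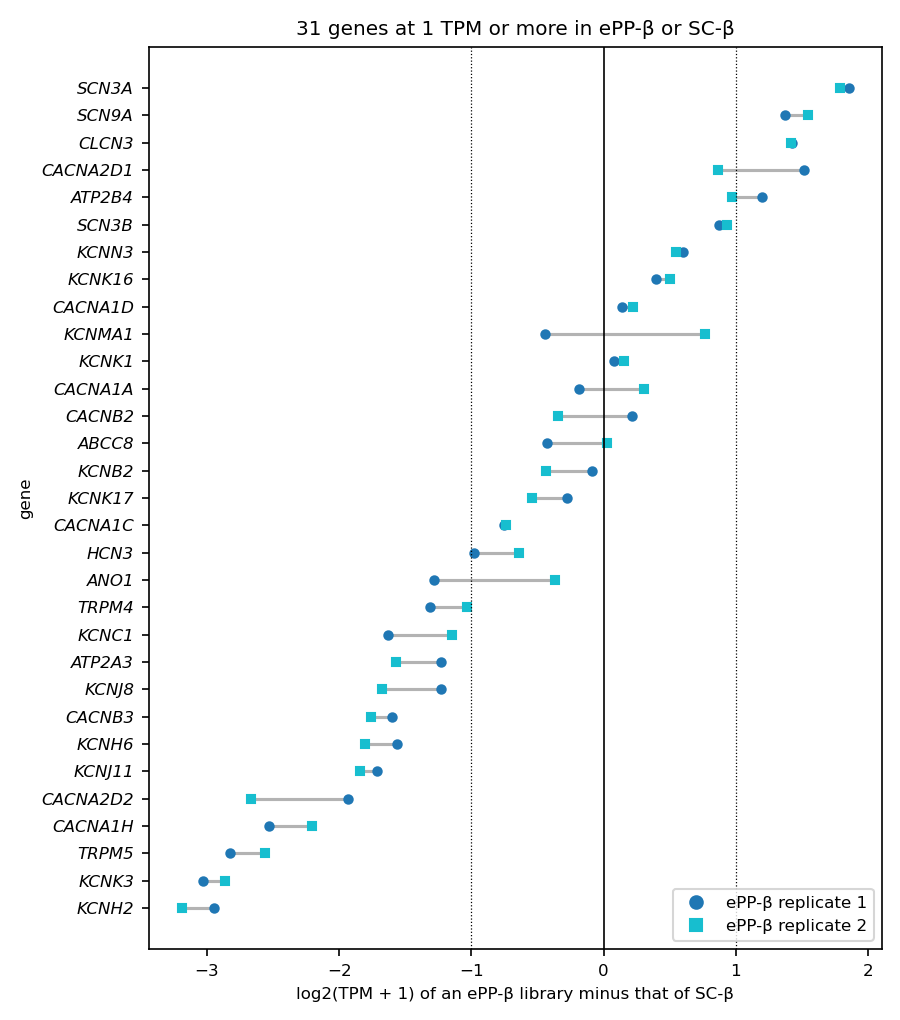
Log2(TPM + 1) of each ePP-β library minus that of SC-β (horizontal axis, dotted lines at 1 unit, solid line at 0) for the 31 genes at 1 TPM or more in either product, joined by a grey line. SCN3A, at 1.85 and 1.79, is at the top, and KCNH2, at -2.95 and -3.19, is at the bottom.

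Marker RNA of other cell types differed between the products as well. The 7 mesenchymal markers summed to 88.6 and 66.9 TPM in ePP-β and 2754 TPM in SC-β, and all 7 were higher in SC-β than in both ePP-β libraries. The α cell markers were higher in SC-β for 3 of 4, with GCG at 74281 TPM against 14107 and 13360 TPM, and the δ cell markers summed to 2811 TPM against 423 and 491 TPM. The enterochromaffin markers summed to 507 TPM in SC-β against 1019 and 1106 TPM in ePP-β, with all 5 lower in SC-β, and the neuronal marker STMN2 was 170 TPM in SC-β against 1056 and 1073 TPM, with POU4F1 under 1 TPM in all 3 libraries. All 4 hepatocyte markers were higher in SC-β, at a sum of 29043 TPM against 14714 and 17372 TPM. The pan-endocrine markers were similar in sum, at 17777 TPM against 18006 and 17009 TPM, carried by CHGA. Of these 7 markers, 4 were higher and 3 lower in SC-β than in both ePP-β libraries. The part of these cell types in the differences of the channel genes was not tested.

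Few of the genes could be compared between passages, since 26 of the 37 were too low to test. By limma, 0 of the 11 tested genes were called between ePP-P21 and ePP-P9, where 1.07% of all 15822 tested genes were called higher and 0.0569% lower. An adjusted p under 0.05 was found for 0 of the 11 and for 1.95% of all tested genes, and an unadjusted one for 2 of the 11, HCN3 and CACNB3, and for 23% of all. HCN3 was 1.5 and 2.21 TPM at passage 9 and 5.57 and 5.94 TPM at passage 21 (1.25 ± 0.22, SE, adjusted p = 0.0621). CACNB3 was 3.70 and 3.39 TPM at passage 9 and 7.38 and 10.1 TPM at passage 21 (1.08 ± 0.21, SE, adjusted p = 0.0726). In both genes the passages did not overlap. With 2 libraries each this says little, and the share of all tested genes without overlap was not counted. Leaving out ePP-P9 replicate 2 changed the number of the 37 genes called higher, and that of all genes, in a fit with 1 library at passage 9. ABCC8, KCNK16 and KCNK17 were near 0 at both passages.

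I-BET151 was compared with DMSO over 7 days of progenitor culture. By limma without a replicate block, 0 of the 11 tested genes were called, where 0.00599% of all 16687 tested genes were called higher and 0.204% lower. The fit with a replicate block, which changed these calls, is given in the closing section. An adjusted p under 0.05 was found for 0 of the 11 and for 0.21% of all tested genes, and an unadjusted one for 5 of the 11 and for 15.2% of all. KCNH2 was 6.98 and 4.17 TPM with DMSO and 0.711 and 0.168 TPM with I-BET151 (-2.18 ± 0.38, SE, adjusted p = 0.10). KCNK1 was 11.6 and 8.15 TPM with DMSO and 2.82 and 1.75 TPM with I-BET151 (-1.73 ± 0.36, SE, adjusted p = 0.127). For both genes every I-BET151 library lay below every DMSO library. With 2 libraries per group such an order says little, and its share over all tested genes was not counted. In ePPs, which were grown with I-BET151 and belong to another batch, KCNH2 was at most 0.134 TPM and KCNK1 at most 5.68 TPM.

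TRPM4 was 7.41 and 4.02 TPM with DMSO and 2.24 and 0.65 TPM with I-BET151 (-1.49 ± 0.48, SE, adjusted p = 0.246). CACNA2D1 was 3.94 and 4.38 TPM with DMSO and 1.06 and 2.34 TPM with I-BET151 (-0.97 ± 0.36, SE, adjusted p = 0.305). SCN9A had the opposite order, at 0.283 and 0.474 TPM with DMSO and 1.48 and 1.75 TPM with I-BET151 (0.93 ± 0.28, SE, adjusted p = 0.221), and it was also the sodium channel gene with the highest level in ePPs. The groups did not overlap in any of these 3 genes, and the share over all tested genes was not counted here either. Replicate 2 was the lower library for 9 of the 11 genes with DMSO and for 8 with I-BET151, and the share over all tested genes was not counted. Without I-BET151 replicate 1, 3 of the genes were called lower, and without I-BET151 replicate 2, 1 was. Hepatocyte marker RNA, carried by TTR, AFP and APOA1, summed to 9798 and 8514 TPM with DMSO and to 984 and 2330 TPM with I-BET151, and its part in these differences was not tested.

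**Figure D5:**
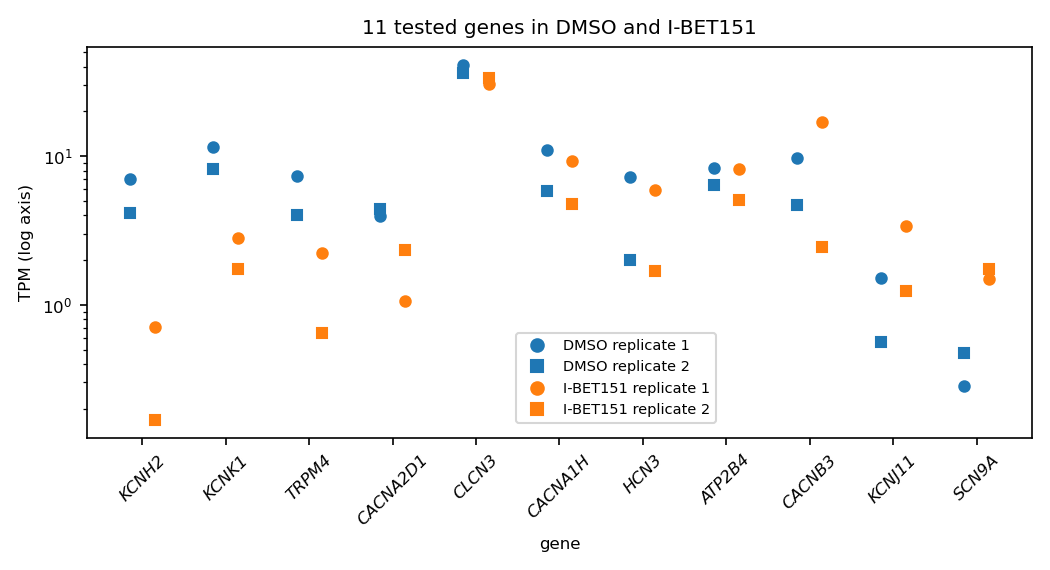
TPM (log axis) of the 11 tested genes in the 2 DMSO libraries (blue) and the 2 I-BET151 libraries (orange), with circles for replicate 1 and squares for replicate 2. KCNH2, KCNK1, TRPM4 and CACNA2D1 have both I-BET151 points below both DMSO points, and SCN9A has them above. None of the 11 genes was called in the fit without a replicate block. How often such an order holds over all tested genes was not counted.

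Other genes of the same families and of calcium handling were counted for comparison. Of 138 other channel genes, 54 were tested in ePP-β against ePPs, and 30 were higher and 6 lower, beside 17.9% and 9.86% of all tested genes. A gene of this list that passed the filter through ePP-β alone likewise had to differ. Of those named below, this holds for KCNJ3, KCNIP1, CACNG4 and ANO9. KCNJ3, for the G protein-gated channel Kir3.1, was 0.326 to 0.489 TPM in ePPs and 21.6 and 22.3 TPM in ePP-β (4.02 ± 0.15, SE, adjusted p = 1.40e-05). KCNS3, a silent partner of Kv2 channels such as that of KCNB2, was 0.065 to 2.08 TPM in ePPs and 22.8 and 25.1 TPM in ePP-β (3.76 ± 0.21, SE, adjusted p = 5.09e-05). KCNIP1, CACNG4 and ANO9 also rose, with log2 fold changes of 3.5, 3.3 and 3.18. KCNJ13, for Kir7.1 of transporting epithelia, fell from 7.61 to 17.1 TPM in ePPs to 0.292 and 0.284 TPM in ePP-β (-3.25 ± 0.18, SE, adjusted p = 4.53e-05). KCNH3, KCNMB4, KCNK5 and CLCN2 were the next lower genes, with log2 fold changes between -2.25 and -1.09. Among the K2P genes, KCNK5 thus fell while KCNK16 rose.

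Of the 31 calcium handling genes, 22 were tested, and 4 were higher and 1 lower, with a median log2 fold change of 0.37. For these few calls the shares over all tested genes are the 17.9% and 9.86% given above. In this list too, a gene that passed the filter through ePP-β alone, such as CAMK2B, had to differ. CAMK2B, a calcium and calmodulin-dependent kinase subunit, was at or below 0.041 TPM in ePPs and 11.3 and 12.1 TPM in ePP-β (3.64 ± 0.14, SE, adjusted p = 1.45e-05). ITPR3, an inositol trisphosphate receptor that releases calcium from the endoplasmic reticulum, was 3.59 to 6.87 TPM in ePPs and 13.8 and 16.6 TPM in ePP-β (1.43 ± 0.17, SE, adjusted p = 7.20e-04). ORAI1, the pore of store-operated calcium entry, fell from 26.2 to 31.1 TPM in ePPs to 10.9 and 8.56 TPM in ePP-β (-1.52 ± 0.13, SE, adjusted p = 2.17e-04). By limma without a replicate block, 0 genes of either list were called between the passages or between I-BET151 and DMSO. Between the passages, an unadjusted p under 0.05 was found for 10 of 31 other channel genes and 6 of 19 calcium handling genes. The share over all tested genes was 23%. Between I-BET151 and DMSO it was found for 10 of 37 and 5 of 21, and for 15.2% of all tested genes.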

How the data were processed

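Total RNA from the 14 libraries was made into NEBNext Ultra libraries and sequenced as paired ends. The authors aligned reads to GRCh38 (hg38) with HISAT2 2.1.0 (submitters' processing notes), assembled transcripts with StringTie and deposited TPM values per gene identifier. Neither the annotation release nor the strand setting is given in the sources used here. TPM keeps no read number, so the depth per library is unknown, no counting interval can be given, and the precision rests on 2 libraries per group.

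Identifiers were matched to GENCODE 44 (60370 of 60624), and the genes were taken by symbol. Genes reaching 1 TPM in 2 or more libraries of a fit were kept, and log2(TPM + 1) values were fitted within batches in R 4.3.3 by limma 3.58.1, using lmFit, contrasts.fit and a trended eBayes. Fold changes on this scale understate the change of low genes. A call needed a Benjamini-Hochberg adjusted p under 0.05 over all tested genes and a log2 fold change beyond 1, two-sided. For ePP-β against ePPs, both passages had equal weight in the ePP level, and ± is SE where stated. The code was tested on simulated data. No library duplicated another.

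SC-β against PP2 and ePP-β against SC-β have no test. The excitability genes, the calcium handling, family and marker lists, and the rules were chosen with earlier results of these data known. Named beside the 37 genes were up to 5 genes per direction of the family and calcium handling lists with the largest called log2 fold change and at least 5 TPM in the higher group. RefSeq windows were matched by symbol (28 of 37 genes), and for KCNK17 the 42 bases inside its GENCODE start were left out. The alternatives were other pseudocounts, filters, scalings, thresholds, a replicate block and leaving out each library. Keeping the tested genes when an ePP-β library was left out was chosen after seeing the data. An item of the marker lists is not reported here.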

Additional observations from a re-analysis of the deposited data

Results flagged for a closer look

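KCNK1 moved in opposite directions on the way to the β-like cells. It rose in ePP-β against ePPs by 1.36 on the log2(TPM + 1) scale, with both ePP-β libraries (12.1 and 12.9 TPM) above all 4 ePP libraries (2.79 to 5.68 TPM). In SC-β (11.5 TPM) it was below PP2 (26.7 TPM), a difference of -1.15.

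ATP2B4 rose by 2.04 in ePP-β against ePPs, while its SC-β level (16.3 TPM) was slightly below that of PP2 (19.0 TPM), a difference of -0.21 between single libraries. For both genes the difference between the routes was not tested, since SC-β and PP2 had 1 library each in another batch.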

How the results depend on the processing

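The 22 genes called in ePP-β against ePPs were recomputed under 18 settings, 396 values in all. Of these, 36 had no test because the gene failed the filter, 16 for each ePP-β library left out and 4 under the 5 TPM filter. Of the other 360, 358 kept direction and call, 2 lost the call (KCNK1, above) and 0 reversed. For the 16 called genes that passed the filter through ePP-β alone, direction was largely set in advance, so these counts are a description. Leaving out 1 library with the filter applied anew gave 6 to 23, the 6 without either ePP-β library. Over all genes, 3237 were higher and 1783 lower. A filter of 5 TPM gave 2058 higher, the adjusted p alone 5276 and 5105, quantile normalization 2866 lower, and leaving out 1 library 1623 to 3273 higher.

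Between the passages (169 higher, 9 lower, and 0 of the 37 genes either way), no filter and median centring each gave 0 and 0, quantile normalization 10 and 3, the adjusted p alone 288 and 21, and a filter of 5 TPM 4 lower. Leaving out 1 library gave 0 to 453 higher, 0 to 25 lower, and 0 to 1 of the 37 genes higher.

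For I-BET151 against DMSO (1 higher, 34 lower), pseudocounts of 0.1 and 0.01 and no filter each gave 0 and 0, median centring 119 lower, and quantile normalization 3 and 135. Leaving out 1 library gave 7 to 283 higher, 100 to 751 lower, and 0 to 3 of the 37 genes lower.

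In SC-β against PP2 the 4 lower genes became 2 under median centring, 2 under quantile normalization and 0 beyond 2 log2 units. In ePP-β against SC-β, a limit of 2 left 0 higher and 4 lower, and without ePP-β replicate 2 there were 5 higher.

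The replicate numbers are only numbers of libraries of 1 line. The correlation over 20582 genes of the difference between replicates 2 and 1 was 0.637 for DMSO and I-BET151, -0.00181 for ePP-P9 and ePP-P21, 0.0335 for ePP-P9 and ePP-β and 0.0379 for ePP-P21 and ePP-β. With a replicate block, I-BET151 against DMSO had 828 higher and 1466 lower genes, and 3 of the 37 were lower, KCNH2 (adjusted p = 9.00e-03, limma), KCNK1 (adjusted p = 0.0118, limma) and TRPM4 (adjusted p = 0.019, limma). The passages had 64 and 2 with the block. The block changed no call of the 37 genes in ePP-β against ePPs or between the passages. For these changes the cause was not tested, apart from the ePP-β leave-outs, where the filter removes genes seen in 1 library.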
